A study of Mus musculus with 12 samples.

Results

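The genes described here encode mitochondrial ribosomal proteins, named Mrpl for the large subunit and Mrps for the small subunit. A gene was included when the platform annotation gave a probe set 1 symbol that begins with Mrpl or Mrps and a digit, and of several probe sets for a gene the one with the highest average over the 12 arrays stands for it. This gave 74 genes, 47 Mrpl and 27 Mrps, of 12393 genes on the array. This rule used names and mean signal only, but the gene family was chosen with earlier results of these data known. The 74 genes had 127 probe sets in all, and 41 genes had a single one. Mrpl30 and Mrpl53 lay only on probe sets shared with another gene and were left out.

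Liver RNA of 12 C57Bl/6J mice aged 6 to 8 weeks was hybridised to 1-colour Affymetrix arrays, 1 array per mouse and 3 mice per group. The groups were Aag knock-out mice given methyl methanesulfonate (MMS), untreated Aag knock-out mice, wild-type mice given MMS and untreated wild-type mice. MMS is an agent that methylates DNA bases, and it was injected once into the peritoneum at 75 mg/kg, with livers taken 6 hours afterwards. Aag, whose gene symbol is Mpg, is the glycosylase that starts the repair of alkylated bases. The labels do not say whether untreated mice received an injection, at what time of day livers were taken, or how the Aag gene was inactivated. Each array has its own animal in the titles.

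The mitochondrial ribosome, or mitoribosome, translates the few proteins encoded by mitochondrial DNA, all of which are core subunits of the respiratory chain and of ATP synthase. Its ribosomal RNAs come from mitochondrial DNA, but every protein of it is encoded in the nucleus, made in the cytosol and imported. Some of these proteins descend from bacterial ribosomal proteins and others exist only in mitochondria. The liver is rich in mitochondria, and hepatocytes depend on respiration for urea synthesis, gluconeogenesis and fatty acid oxidation. By these classes, 29 of the 74 genes encode large subunit proteins with a bacterial counterpart, 20 large subunit proteins specific to mitochondria, 15 small subunit proteins with a bacterial counterpart and 9 small subunit proteins specific to mitochondria. Mrps18a and Mrps30 carry a small subunit name but encode large subunit proteins. Mrps36, the remaining gene, encodes a protein now known as a component of the 2-oxoglutarate dehydrogenase complex.

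Levels below are log2 expression values and differences are on the log2 scale, ± the standard error. A gene was called where its Benjamini-Hochberg adjusted p from limma over all 22626 probe sets lay below 0.05. Over all probe sets, array medians spanned 7.42 to 7.75. At 1 of the 2 Mpg probe sets the log2 values were 4.95 to 5.75 in knock-out and 6.21 to 6.94 in wild-type liver, with no overlap (exact two-sided permutation p = 0.005 within treatments, the smallest that 400 regroupings can give). All 10 hepatocyte markers were measured, and their summed level was 17.32 to 17.38 in MMS-treated knock-out, 17.35 to 17.37 in untreated knock-out, 17.19 to 17.36 in MMS-treated wild-type and 17.32 to 17.34 in untreated wild-type liver (log2 of the sum). In whole liver RNA, fewer cells of a type and less RNA per cell cannot be told apart.

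Arrays differed in the signal at the 5' end of the control transcripts relative to their 3' end, a measure that depends on how complete the labelled RNA is. The Gapdh control probe sets had a 5' minus 3' log2 signal of -0.70 and -0.67 in MMS-treated knock-out arrays 1 and 2 and of -0.85 in MMS-treated wild-type array 2. In the other 9 arrays it lay between -1.93 and -1.50. The median of the 74 genes, each set to a mean of 0 over the arrays, was 0.20, 0.12 and 0.06 in MMS-treated knock-out arrays 1, 2 and 3. It was -0.11, -0.19 and -0.04 in untreated knock-out arrays, -0.22, 0.18 and -0.02 in MMS-treated wild-type arrays, and -0.04, -0.05 and 0.04 in untreated wild-type arrays. The 3 arrays with the highest medians of mitoribosomal protein genes were therefore the 3 with the highest Gapdh 5' to 3' signal. The beta-actin control probe sets set apart only the 2 knock-out arrays among them, at -2.53 and -2.35, against -3.41 to -3.05 in the other 10 arrays. Values with these arrays left out, and with the control signal in the fit, are given beside the results they touch.

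**Figure D1:**
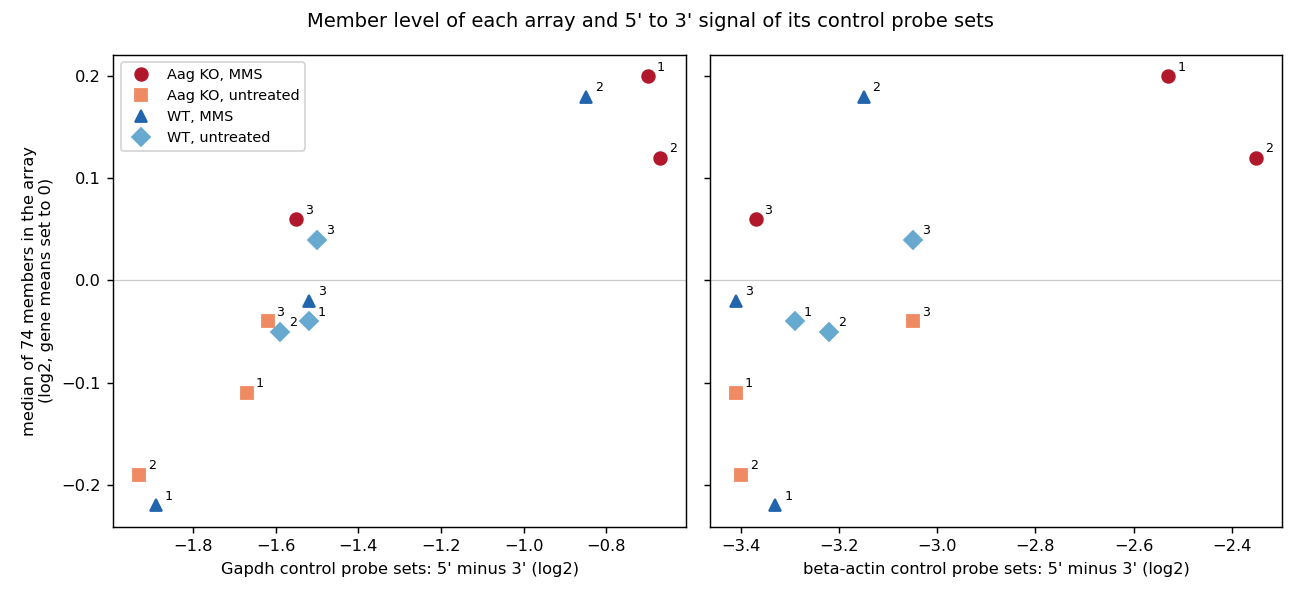
Median log2 level of the 74 mitoribosomal protein genes in each array, with gene means set to 0, against the 5' minus 3' log2 signal of the Gapdh (left) and beta-actin (right) control probe sets. Each point is 1 array with its animal number. MMS-treated knock-out arrays 1 and 2 and MMS-treated wild-type array 2 had the highest Gapdh signal difference, -0.85 to -0.67, and the highest medians, 0.12 to 0.20.

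In Aag knock-out liver, most mitoribosomal protein genes had a higher mean after MMS than without it, but none passed the threshold. The difference was positive for 58 of the 74 genes, where it was for 43.7% of all probe sets, with a median of 0.21 and quartiles of 0.04 and 0.48. The median over all 22626 probe sets was -0.06, and it was 0.05 over the 9990 probe sets with a mean at or above that of the dimmest of the 74. Of these 9990 probe sets, 5546 had a positive difference. Of the 74 genes 0 were called, where 1.51% of all probe sets were. An unadjusted p under 0.05 was reached by 30 of them, against 24.8% of all probe sets and 32.5% of those at least as bright. In 31 genes every MMS-treated array lay above every untreated array, a pattern seen in 12.9% of all probe sets and in 21.5% of those at least as bright as the dimmest of the 74, and in 2 genes, Mrpl3 and Mrps9, every MMS-treated array lay below, where 13.8% of all probe sets did. This count of groups that do not overlap was chosen after values had been seen.

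The 4 genes with the smallest p were Mrps18a, Mrpl3, Mrpl22 and Mrpl27. Mrpl27, whose bacterial counterpart L27 reaches into the peptidyl transferase centre where peptide bonds form, had log2 values of 11.27, 11.44 and 10.46 in MMS-treated knock-out livers, against 10.12, 9.81 and 10.10 in untreated knock-out livers. Every MMS-treated array was higher, and array 3 was the lowest of the treated group by a wide margin. The difference was 1.04 ± 0.27, or 2.06-fold (adjusted p = 0.0669). Mrps18a, an S18-related protein of the large subunit, had 10.58, 10.61 and 9.84 in MMS-treated livers, against 9.59, 9.34 and 9.56 in untreated livers. The groups did not overlap, array 3 was again the lowest of the treated arrays, and the difference was 0.85 ± 0.22 (1.80-fold, adjusted p = 0.0662). Mrpl22, whose bacterial counterpart lines the tunnel through which the new peptide leaves, had 11.88, 11.98 and 11.57 in MMS-treated livers, against 11.19, 11.27 and 11.25 in untreated livers. Its groups did not overlap either, with a difference of 0.57 ± 0.15 (1.49-fold, adjusted p = 0.0668).

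Mrpl3 went the other way. The protein is the counterpart of bacterial L3, which sits near the peptidyl transferase centre. Its log2 values were 10.77, 10.61 and 10.74 in MMS-treated knock-out livers, against 11.11, 11.11 and 11.11 in untreated knock-out livers. All treated arrays were lower, including array 3, and the difference was -0.40 ± 0.10 (0.757-fold, adjusted p = 0.0666). The other 2 probe sets of Mrpl3 differed by 0.25 ± 0.20 and -0.14 ± 0.15, so they did not share 1 sign. Mrps9, the counterpart of bacterial S9 at the decoding subunit, had 10.06, 10.06 and 10.37 in MMS-treated livers, against 10.52, 10.47 and 10.60 in untreated livers. Its groups did not overlap (-0.37 ± 0.13, adjusted p = 0.122), and 2 of its 3 other probe sets differed in the positive direction, by 0.43 ± 0.23 and 0.32 ± 0.24.

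**Figure D2:**
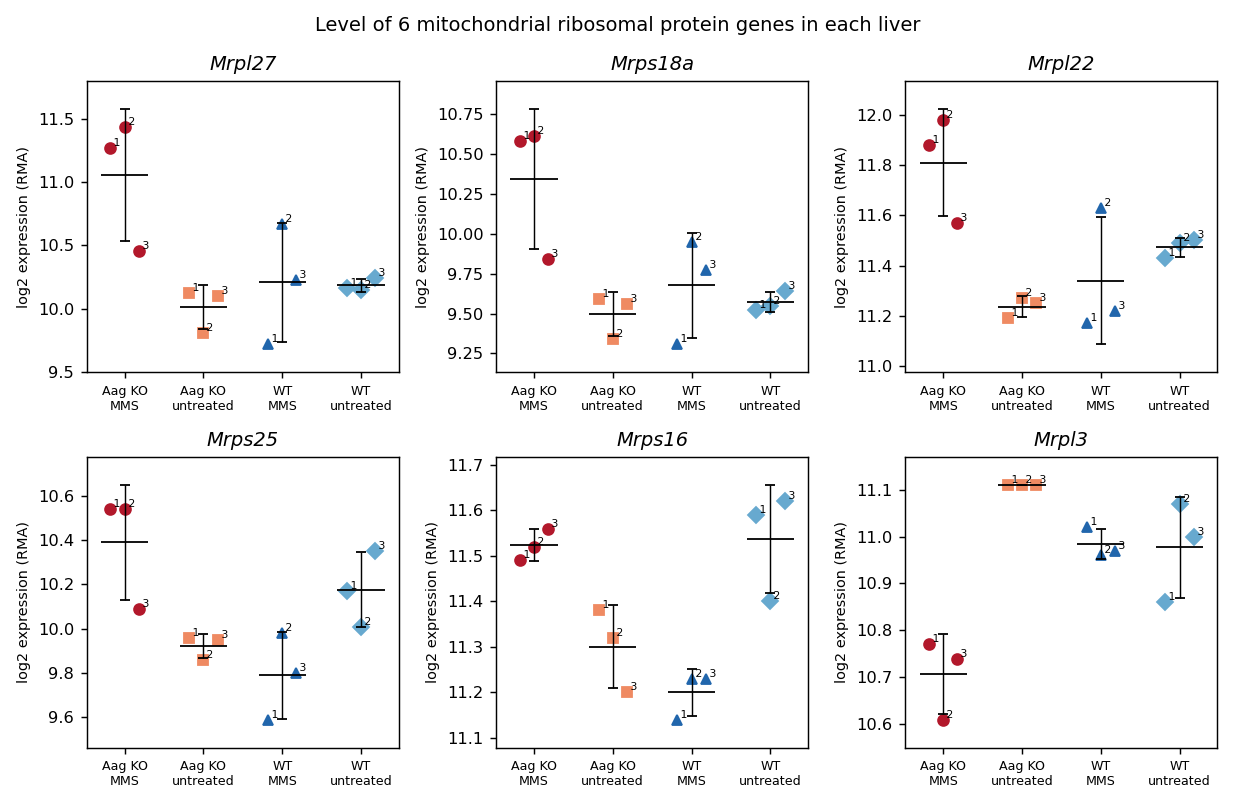
RMA log2 expression of 6 mitoribosomal protein genes in each liver. Points are single arrays with their animal number, horizontal lines are group means and error bars are 1 SD (n = 3 each). Mrpl27, Mrps18a, Mrpl22, Mrps25 and Mrps16 were higher in every MMS-treated than in every untreated knock-out array and Mrpl3 was lower, and Mrps25 and Mrps16 were lower in every MMS-treated than in every untreated wild-type array.

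All classes of mitoribosomal proteins had a positive median difference in knock-out liver. It was 0.24 for the 29 large subunit proteins with a bacterial counterpart, of which 22 were positive and 12 had every treated array above. Among them Mrpl14 had a difference of 0.91 ± 0.27, Mrpl18 of 0.74 ± 0.23 and Mrpl19 of 0.68 ± 0.19. It was 0.17 for the 20 large subunit proteins specific to mitochondria, of which 18 were positive and 9 had every treated array above, among them Mrpl58, a peptidyl-tRNA hydrolase built into the ribosome, at 0.58 ± 0.19. The 15 small subunit proteins with a bacterial counterpart had a median of 0.19, with 10 positive and 4 with every treated array above. Mrps6 differed by 0.68 ± 0.23 and Mrps17 by 0.61 ± 0.18. The 9 small subunit proteins specific to mitochondria had a median of 0.35, with 7 positive and 6 with every treated array above, namely Mrps18b, Mrps31, Mrps35, Mrps25, Mrps34 and Mrps23. Over all probe sets, 43.7% were positive and 12.9% had every treated array above. Of the 9990 probe sets at least as bright as the dimmest of the 74, 5546 were positive and 21.5% had every treated array above. The classes were not tested against each other.

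Genes chosen for a known role, within or beyond the ribosome, spanned this range. Earlier results of these data were known at that choice. Mrpl45, which anchors the ribosome's exit site to the inner membrane, differed by 0.58 ± 0.21 in knock-out liver (adjusted p = 0.120), with 8.83, 8.76 and 8.19 after MMS, against 8.14, 7.78 and 8.12 without it. Mrpl12, the stalk protein that also binds the mitochondrial RNA polymerase, differed by 0.36 ± 0.19 (adjusted p = 0.263), with 12.02, 11.89 and 11.79 after MMS, against 11.47, 11.39 and 11.77 without it. For both genes the groups did not overlap, though for Mrpl12 the lowest treated and the highest untreated value were almost equal. Mrps30, also named programmed cell death protein, differed by 0.32 ± 0.13 (adjusted p = 0.148), and Mrpl41, a binding partner of Bcl-2, by 0.12 ± 0.12 (adjusted p = 0.538). Mrps12, the protein of the decoding centre, differed by 0.14 ± 0.11, Mrpl28 by -0.05 ± 0.10 and Mrps36 by 0.02 ± 0.17, all with overlapping groups.

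MMS-treated knock-out array 3 held the lowest value of its group in 39 of the 74 genes, 27 of them among the 31 genes with every treated array above. It also had the lowest Gapdh 5' to 3' signal of the group. With that array left out, limma called 17 of the 74 genes higher and 5 lower, where 14.4% of all probe sets were called. With the other 2 arrays of the group and MMS-treated wild-type array 2 left out instead, 1 treated knock-out array remained, assumed to vary like the other groups. The median difference in knock-out liver was then 0.16, against 0.03 over all probe sets, and 0 of the 74 genes and 0% of all probe sets were called. With the 5' to 3' control signal as a covariate the median was 0.06, Mrpl27 differed by 0.34 and Mrps18a by 0.31, and 0 of the 74 genes and 0 of all probe sets were called. What part the control signal has in the difference after MMS was not tested.

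**Figure D3:**
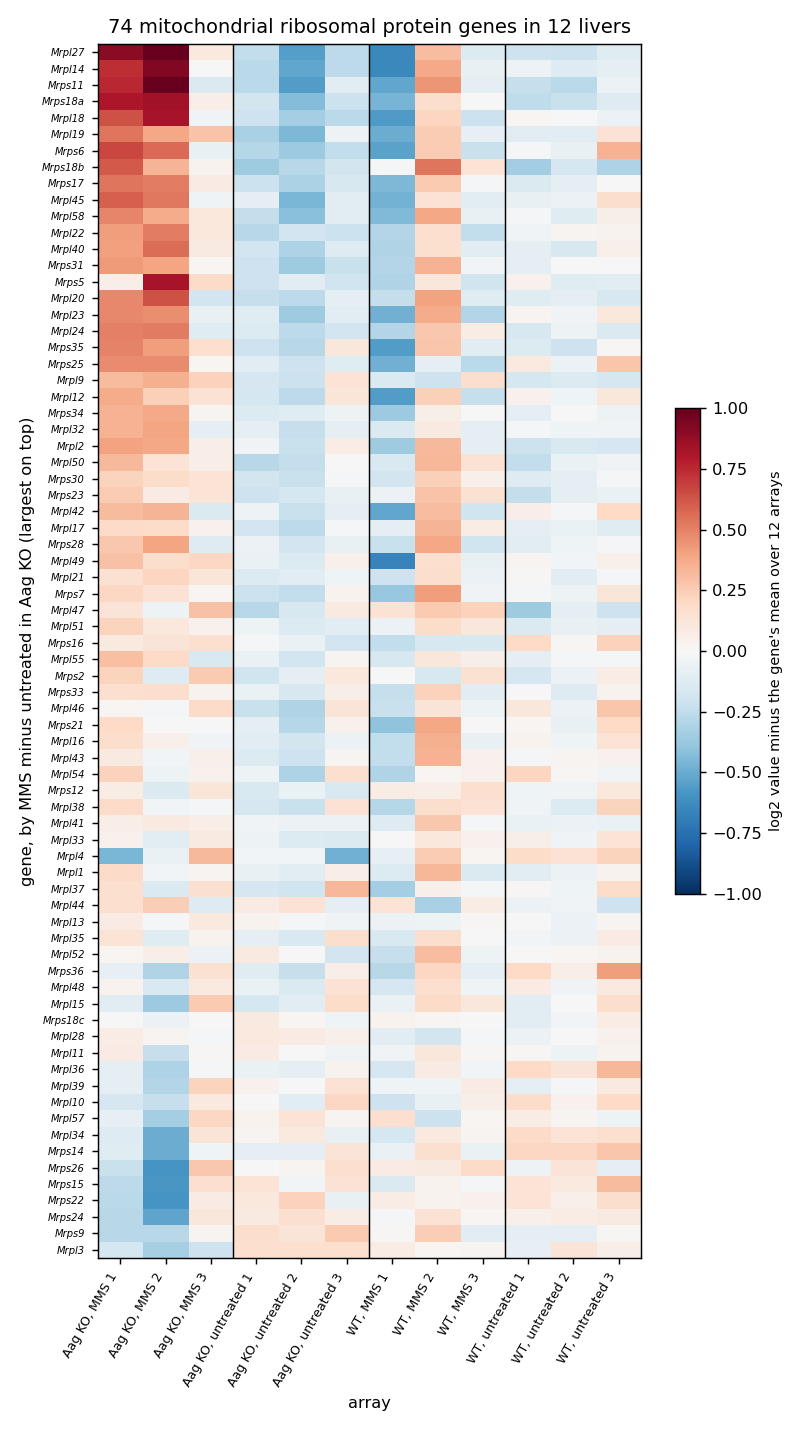
Log2 value minus the gene's mean over 12 arrays for all 74 mitoribosomal protein genes (rows, ordered by MMS minus untreated in knock-out liver, largest on top) in 12 livers (columns, grouped by genotype and treatment). The colour scale runs from -1 to 1. Arrays 1 and 2 of the MMS-treated knock-out group are highest in most rows of the upper part and lowest in the rows at the bottom, while array 3 is paler.

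In wild-type liver the differences after MMS were smaller and centred near 0 in the deposited values. The median over the 74 genes was -0.01, with quartiles of -0.13 and 0.06, and 33 genes were positive, where 43.3% of all probe sets were. The median over all probe sets was -0.05. None of the 74 genes was called, where 6.44% of all probe sets were, and 4 had an unadjusted p under 0.05, against 23.2% of all probe sets. Every MMS-treated array lay above every untreated array in 4 genes (Mrpl47, Mrpl51, Mrps18b and Mrps23), where 11.3% of all probe sets had that pattern, and below in 6 genes (Mrpl34, Mrpl36, Mrps14, Mrps15, Mrps16 and Mrps25), where 20.5% did. Both shares of the 74 genes, 5.41% and 8.11%, were under those of all probe sets. After median centring the median was 0.18 in wild-type and 0.14 in knock-out liver, against 0.14 and -0.13 over all probe sets. Every treated wild-type array then lay above in 27 genes, where 26.5% of all probe sets did. Which genotype had the larger median thus depended on the scaling. Relative to all probe sets the 74 genes lay 0.04 above in wild-type and 0.27 above in knock-out liver under both scalings. Centring shifts every probe set of an array by the same amount, so it cannot change this gap. After quantile normalization the gap was 0.03 in wild-type and 0.17 in knock-out liver. With the control signal as a covariate it was 0.04 and 0.07.

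Mrps16, the counterpart of a bacterial protein needed early in small subunit assembly, had the smallest p in wild-type liver. Its log2 values were 11.14, 11.23 and 11.23 in MMS-treated livers, against 11.59, 11.40 and 11.62 in untreated livers. All treated arrays were lower (-0.34 ± 0.11, adjusted p = 0.0888). Mrps25, a small subunit protein specific to mitochondria, had 9.59, 9.98 and 9.80 in MMS-treated livers, against 10.17, 10.01 and 10.35 in untreated livers. Array 2 of the treated group came within a few hundredths of the untreated range without entering it (-0.39 ± 0.16, adjusted p = 0.169).

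Mrpl47, a protein at the exit of the peptide tunnel, had 12.04, 12.16 and 12.13 in MMS-treated wild-type livers, against 11.54, 11.81 and 11.69 in untreated wild-type livers. Every treated array was higher (0.43 ± 0.14, 1.35-fold, adjusted p = 0.0890). Mrps18b, an S18-related protein of the small subunit that also binds the retinoblastoma protein, had 11.83, 12.38 and 11.98 in MMS-treated wild-type livers, against 11.50, 11.68 and 11.54 in untreated wild-type livers (0.49 ± 0.17, 1.40-fold, adjusted p = 0.122). In knock-out liver it had 12.46, 12.19 and 11.88 after MMS, against 11.49, 11.57 and 11.66 without it (0.61 ± 0.17, 1.52-fold, adjusted p = 0.0809). Mrps18b thus had every treated array above every untreated array in both genotypes, as did Mrpl51 and Mrps23. The share of all probe sets with this pattern in both genotypes was not counted.

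The 3 MMS-treated wild-type arrays were spread widely for these genes. Array 2 was the highest of the group in 59 of the 74 genes and array 1 the lowest in 62. Array 2 is the one with the high Gapdh 5' to 3' signal. Without it the wild-type median was -0.13, and 24 genes had every treated array below every untreated array, where 28.1% of all probe sets did. Without array 1 the median was 0.09. With the control signal as a covariate the median stayed at -0.01, and limma called Mrps18b higher (adjusted p = 0.0341) and Mrps25 lower (adjusted p = 0.0391), where 10.1% of all probe sets were called.

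**Figure D4:**
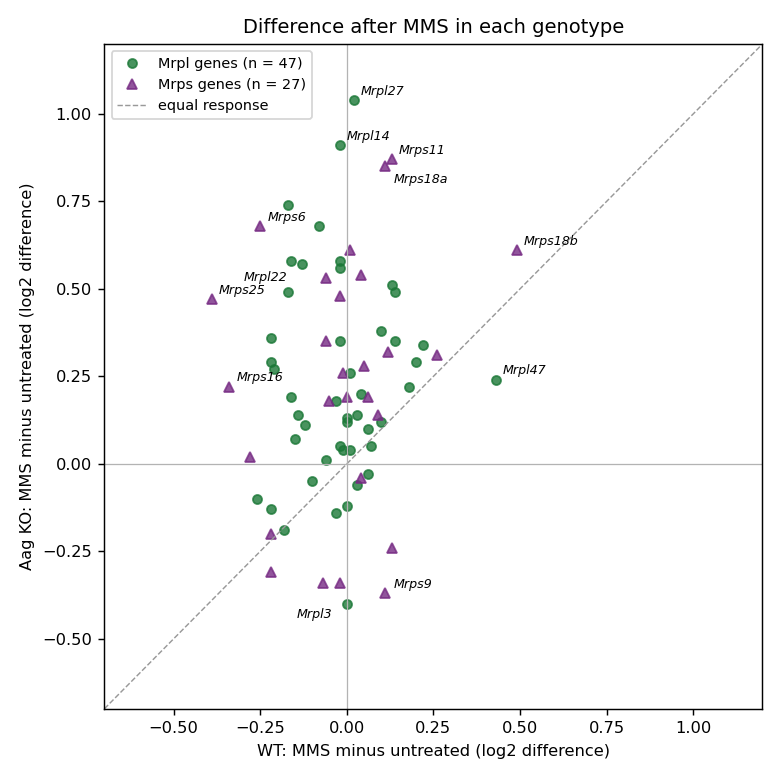
MMS minus untreated log2 difference of each of the 74 mitoribosomal protein genes in Aag knock-out liver (vertical axis) against that in wild-type liver (horizontal axis). Circles are the 47 Mrpl and triangles the 27 Mrps genes, and the dashed line marks equal differences. The cloud spans -0.40 to 1.04 on the knock-out axis and -0.39 to 0.49 on the wild-type axis, with 60 genes above the dashed line.

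The difference between the 2 responses was tested as the interaction of genotype and treatment. It was positive, meaning a higher difference after MMS in knock-out than in wild-type liver, for 60 of the 74 genes, where it was for 54.6% of all probe sets, with a median of 0.21. The median was 0.05 over all probe sets and 0.12 over those at least as bright as the dimmest of the 74. Of these 9990 bright probe sets, 6290 had a positive interaction. None of the 74 genes was called, as was 0% of all probe sets, and 15 had an unadjusted p under 0.05, against 17.7% of all probe sets. After centring each array on its median the interaction median was -0.05 for the 74 genes and -0.21 for all probe sets. The gap of 0.16 is that of the deposited values, since centring cannot change it. After quantile normalization the interaction median was 0.07 for the 74 genes and -0.01 for all probe sets, a gap of 0.08. With the control signal as a covariate the medians were 0.07 and 0.05, a gap of 0.02. Without MMS-treated wild-type array 1 the interaction median was 0.09.

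Mrps25 and Mrps16 had opposite patterns in the 2 genotypes, a combination that was not counted over all probe sets. In knock-out liver Mrps25 had 10.54, 10.54 and 10.09 after MMS, against 9.96, 9.86 and 9.95 without it, so that every treated array was higher (0.47 ± 0.16, adjusted p = 0.110), whereas in wild-type liver every treated array was lower. The interaction was 0.86 ± 0.22 (adjusted p = 0.138). Its other 2 probe sets differed by 0.10 ± 0.24 and 0.11 ± 0.19 in knock-out and by -0.58 ± 0.24 and -0.06 ± 0.19 in wild-type liver, with overlapping groups. Mrps16 had 11.49, 11.52 and 11.56 in MMS-treated knock-out livers, against 11.38, 11.32 and 11.20 in untreated knock-out livers (0.22 ± 0.11, adjusted p = 0.232). Here array 3 was not the lowest of the treated group, and with the control signal as a covariate the interaction was 0.58, against 0.56 ± 0.15 without it (adjusted p = 0.224 and 0.146). The next smallest p values of the interaction belonged to Mrpl22, at 0.70 ± 0.21, and Mrpl19, at 0.76 ± 0.26 (adjusted p = 0.164 and 0.200).

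Probe sets of 1 gene did not always go together. Mrpl19, the counterpart of bacterial L19 at the interface of the subunits, had 9.10, 8.95 and 8.85 in MMS-treated knock-out livers, against 8.24, 8.11 and 8.51 in untreated knock-out livers, at a probe set that the platform's naming marks as matching several transcripts. At its other probe sets every treated array was above in one (0.79 ± 0.25, adjusted p = 0.10) and below in the other (-0.62 ± 0.15, adjusted p = 0.0585). Over all 53 further probe sets of the 74 genes, the difference had the sign of the gene's chosen probe set in 33 for the knock-out response and in 30 for the wild-type response. The median over them was 0.07 in knock-out and -0.09 in wild-type liver. Limma called 1 of them, for Mrpl1 in wild-type liver, where 6.44% of all probe sets were called. This Mrpl1 probe set differed by -0.53 ± 0.13 (adjusted p = 0.0401), and the chosen Mrpl1 probe set differed in the other direction.

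Without MMS, mitoribosomal protein genes were on the whole slightly lower in knock-out than in wild-type liver. The difference was positive for 17 of the 74 genes, where 46.4% of all probe sets were positive. Its median was -0.07, against -0.02 over all probe sets and -0.06 over those at least as bright as the dimmest of the 74. Of these 9990 bright probe sets, 3524 were positive. None of the 74 genes was called, where 0.0398% of all probe sets were, and 0 had an unadjusted p under 0.05, against 7.16% of all probe sets. Every knock-out array lay below every wild-type array in 20 genes, where 10.8% of all probe sets and 17.6% of the equally bright ones did, and above in 3 (Mrpl3, Mrpl28 and Mrps9), where 7.52% did. The 20 differences ran from -0.38 to -0.11. After median centring the median was 0.02 for the 74 genes and 0.08 for all probe sets. The gap of -0.05 is that of the deposited values, since centring cannot change it. It was -0.03 after quantile normalization and -0.02 with the control signal as a covariate. The genes with every knock-out array below numbered 8 after median centring, where 5.19% of all probe sets had that pattern. Without untreated knock-out array 3 they numbered 41, where 27.1% did.

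The smallest p values without MMS belonged to Mrps16, Mrpl36, Mrps9 and Mrps36. Mrps16 differed by -0.24 ± 0.11 (adjusted p = 0.697), with the values given above. Mrpl36, the counterpart of the small bacterial protein L36, had 10.86, 10.84 and 10.96 in untreated knock-out livers, against 11.13, 11.06 and 11.26 in untreated wild-type livers, with no overlap (-0.26 ± 0.12, adjusted p = 0.706). Mrps9 had 10.52, 10.47 and 10.60 in untreated knock-out livers, against 10.24, 10.25 and 10.35 in untreated wild-type livers, so that the knock-out arrays were the higher ones (0.25 ± 0.13, adjusted p = 0.744). Mrps36 had 11.14, 11.03 and 11.33 in untreated knock-out livers, against 11.46, 11.33 and 11.68 in untreated wild-type livers, and the groups touched at 11.33 (-0.32 ± 0.17, adjusted p = 0.745).

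In 12 genes the untreated knock-out arrays were all below the untreated wild-type arrays while the MMS-treated knock-out arrays were all above the untreated knock-out arrays. The untreated knock-out arrays are the lower side of both comparisons, so these counts share their samples. The share of all probe sets with both patterns was not counted, so the 12 cannot be read as particular to these genes. Mrpl22 is an example, with 11.19 to 11.27 in untreated knock-out, against 11.43 to 11.50 in untreated wild-type liver.

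After MMS, 53 of the 74 genes were higher in knock-out than in wild-type liver by their means, where 53% of all probe sets were. The median difference was 0.12, against 0.02 over all probe sets. Of the 9990 probe sets at least as bright as the dimmest of the 74, 5834 were higher, with a median of 0.06. None of the 74 genes was called, where 0.0177% of all probe sets were, and 19 had an unadjusted p under 0.05, where 18.4% of all probe sets did. Every knock-out array lay above every wild-type array in 5 genes (Mrpl9, Mrpl19, Mrpl49, Mrps16 and Mrps25), where 9.92% of all probe sets did, and below in Mrpl3 alone, where 7.71% did. Mrps25 had the smallest p, at 0.60 ± 0.16 (1.52-fold, adjusted p = 0.125). The next were Mrpl22 at 0.47 ± 0.15, Mrpl27 at 0.85 ± 0.27 and Mrps18a at 0.67 ± 0.22, each with overlapping groups (adjusted p = 0.164 to 0.170). For these 3 genes the overlap was between knock-out array 3 and wild-type array 2. Without wild-type array 2 the median was 0.21 and 34 genes had every knock-out array above, where 18% of all probe sets did. Without wild-type array 1 the median was 0.03, without knock-out array 1 it was 0.07, and without knock-out array 3 limma called 4 genes higher (Mrps18a, Mrps25, Mrpl27 and Mrpl18), where 4.94% of all probe sets were called. The median was -0.05 after median centring, -0.01 with the control signal as a covariate and 0.04 after quantile normalization, where the median over all probe sets was -0.14, 0.02 and -0.01. Relative to all probe sets the median of the 74 genes was 0.09 as deposited, -0.03 with the covariate and 0.05 after quantile normalization. Median centring cannot change this gap.

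Genes that serve the same process were described next to the mitoribosomal proteins. Of 4 measured mitoribosome proteins with other names (Dap3, Ptcd3, Chchd1 and Gadd45gip1), 0 were called in any comparison, and their median difference after MMS was 0.13 in knock-out and -0.14 in wild-type liver. In knock-out liver, where 1.51% of all probe sets were called, 2 of 21 measured genes for mitoribosome assembly and ribosomal RNA processing rose. The other 19 were not called, and the median of the 21 was 0.36. The 2 that rose were Ngrn, which binds and stabilises the large ribosomal RNA, and Rpusd4, a pseudouridine synthase that acts on it. Ngrn had 10.21, 10.08 and 9.98 after MMS, against 9.48, 9.46 and 9.67 in untreated knock-out livers (0.55 ± 0.11, adjusted p = 0.0466). Rpusd4 had 8.69, 8.60 and 8.22 after MMS, against 7.56, 7.41 and 7.64 without it (0.96 ± 0.21, adjusted p = 0.0495). Array 3 was the lowest treated array for both genes, and both calls were lost with the control signal as a covariate, where 0 probe sets were called. In wild-type liver none of the 21 was called, where 6.44% of all probe sets were, and the median was 0.19.

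Of 7 measured translation factors 1 fell and 6 were not called in wild-type liver after MMS, where 6.44% of all probe sets were called. None was called in knock-out liver, where 1.51% of all probe sets were. The gene that fell was Mtfmt, the enzyme that formylates the initiator methionyl-tRNA, at 8.79, 9.02 and 9.09 after MMS, against 9.47, 9.64 and 9.54 in untreated wild-type livers (-0.58 ± 0.14, adjusted p = 0.0398). In wild-type liver, where 6.44% of all probe sets were called, 2 of 9 measured regulators of mitochondrial biogenesis fell and 7 were not called. They were Ppargc1a, the coactivator that drives mitochondrial biogenesis, at 8.33, 8.21 and 8.22 after MMS, against 10.44, 9.08 and 10.09 without it (-1.62 ± 0.32, adjusted p = 0.0172), and the transcription factor Myc (-1.60 ± 0.33, adjusted p = 0.0208). In knock-out liver Ppargc1a differed by -0.74 ± 0.32 (adjusted p = 0.180). The other 2 lists of the pathway, 11 mitochondrial tRNA synthetases and 14 genes for mitochondrial transcription and RNA, had 0 called genes after MMS in either genotype, with medians of 0.01 and 0.17 in knock-out and 0.06 and 0.08 in wild-type liver.

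**Figure D5:**
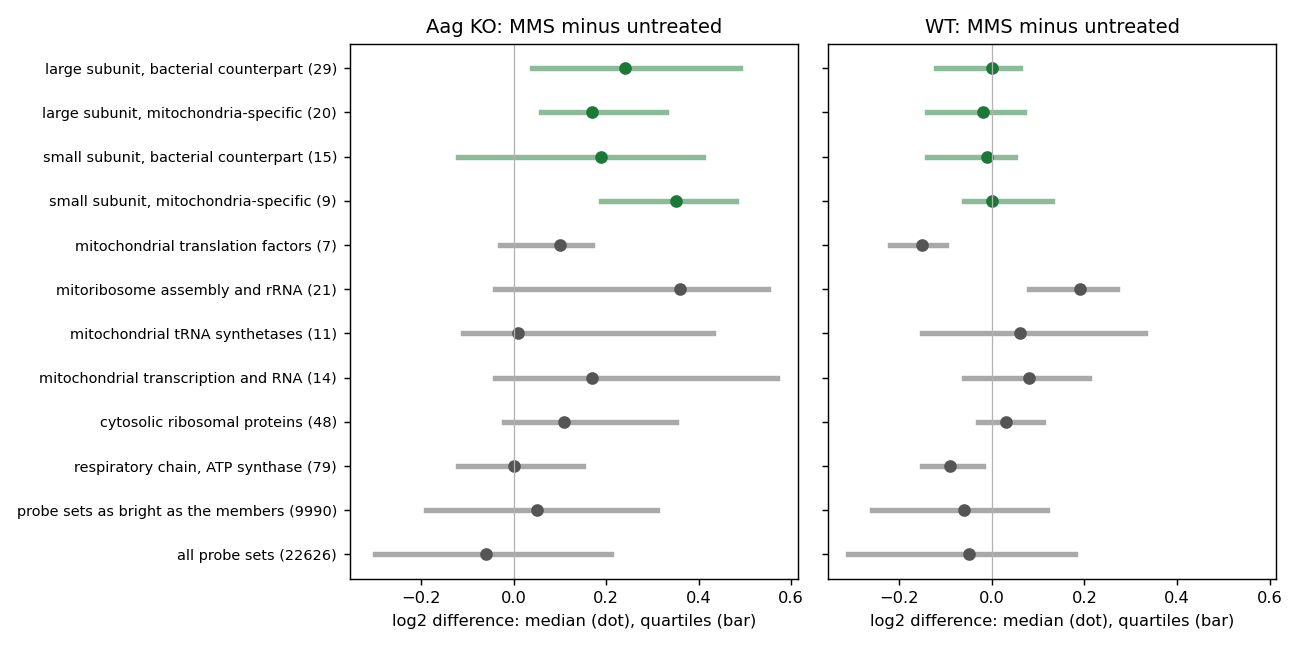
Median (dot) and quartiles (bar) of the MMS minus untreated log2 difference in Aag knock-out (left) and wild-type (right) liver for the 4 classes of mitoribosomal proteins (green) and for related lists and all probe sets (grey), with the number of genes or probe sets in brackets. The 4 green medians lie at 0.17 to 0.35 in knock-out liver and at -0.02 to 0.00 in wild-type liver, where the median of all probe sets is -0.06 and -0.05.

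The ribosomes of the cytosol and the respiratory chain were taken for comparison. The 48 cytosolic ribosomal protein genes had a median difference after MMS of 0.11 in knock-out and 0.03 in wild-type liver, and in knock-out liver 20 had every treated array above and 6 below. The 79 genes for subunits of the respiratory chain and ATP synthase, the complexes that contain the products of the mitoribosome, had medians of 0.00 and -0.09, and in knock-out liver 8 had every treated array above and 12 below. Over all probe sets the shares above and below were 12.9% and 13.8%. None of the 48 or the 79 genes was called in knock-out liver, where 1.51% of all probe sets were. Of the 48, Rpl37 rose (1.26 ± 0.26, limma adjusted p = 0.0222) and Rpl22l1 fell (-0.53 ± 0.13, limma adjusted p = 0.0342) in wild-type liver, where 6.44% of all probe sets were called. The Rpl37 probe set was dim, with means of 4.95 after MMS and 3.7 without it, where the lowest value of all probe sets was 2.21. When each array was set relative to its median of cytosolic ribosomal protein genes, the median of the 74 mitoribosomal genes in knock-out liver was 0.08, against -0.19 over all probe sets, with 20 genes having every treated array above, where 8.32% of all probe sets did. No test of the difference between these lists was made.

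Markers of other liver cell types also differed with treatment. The summed level of 8 stellate cell and fibroblast markers was 13.09 to 13.36 in MMS-treated and 13.44 to 13.48 in untreated knock-out liver, and 12.72 to 12.93 in MMS-treated and 13.45 to 14.13 in untreated wild-type liver (log2 of the sum). For 8 endothelial markers it was 13.05 to 13.26 in MMS-treated and 13.34 to 13.44 in untreated knock-out liver, and 13.01 to 13.18 in MMS-treated and 13.40 to 13.53 in untreated wild-type liver. For 7 lymphocyte markers it was 9.64 to 10.18 in MMS-treated and 10.25 to 10.63 in untreated knock-out liver, and 9.31 to 9.60 in MMS-treated and 10.04 to 10.29 in untreated wild-type liver. The summed levels of these 3 lists, which the brightest markers set, were lower in all treated than in all untreated arrays of both genotypes. By single markers the median difference in knock-out liver was -0.18 for the stellate list, with 4 of 8 positive, -0.21 for the endothelial list, with 2 of 8 positive, and -0.49 for the lymphocyte list, with 0 of 7 positive. For 6 neutrophil markers the summed level was 10.16 to 11.90 in MMS-treated and 9.19 to 9.73 in untreated knock-out liver, and 10.60 to 12.24 in MMS-treated and 9.13 to 9.31 in untreated wild-type liver. By single markers 3 of the 6 were positive in each genotype, with medians of 0.04 in knock-out and 0.17 in wild-type liver. S100a8 and S100a9 reached 11.2 and 11.21, whereas Ngp, Ltf, Camp and Csf3r did not exceed 6.05 in any array. For 5 pancreatic acinar markers, a cell type of the neighbouring pancreas, the summed level was 10.96 to 12.74 in MMS-treated and 10.41 to 11.04 in untreated knock-out liver, and 10.61 to 10.87 in MMS-treated and 10.57 to 11.13 in untreated wild-type liver. All 5 had a positive difference after MMS in knock-out liver, with a median of 0.62 and overlapping groups, and 0 were called. The part of these cell types in the values of the mitoribosomal protein genes was not tested.

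Promoters of nuclear genes for mitochondrial proteins often hold sites for NRF1, for ETS factors such as GABPA and for YY1. The 250 bases before an annotated transcript start were searched on both strands for CGCATGCG (NRF1), CCGGAAGT (ETS) and AAGATGGCG (YY1), in RefSeq windows of the GRCm38.p6 build that matched 65 of the 74 genes. No motif of the 3 holds the letters of another. The ETS letters were found in 9 of the 65 genes (13.8%), against 3.23% of 27025 genes with a window. The NRF1 letters were found in 7 (10.8% against 1.75%) and the YY1 letters in 2 (Mrpl36 and Mrps11; 3.08% against 0.71%). Any of the 3 was present in 7 of 28 genes (25%) with every MMS-treated knock-out array above and in 11 of the other 37 (29.7%), and this difference was not tested. The NRF1 letters were first searched with 1 more base at each end and were shortened after those counts had been seen. In the longer form they were found in 3 of the 65 genes (4.62% against 0.877%), and any of the 3 motifs in 4 of the 28 genes (14.3%) and in 10 of the other 37 (27%), so both the NRF1 share and the gap between the 2 sets of genes depend on the form.

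Windows of 3 genes, chosen after the matches and values had been seen, are shown with the motif in capitals and the rest in lower case. Each holds a motif on the strand of the gene. In knock-out liver Mrpl27 and Mrpl22 had every MMS-treated array above every untreated array, and Mrpl3 had every one below. The motif starts 55 bases before the transcript start in Mrpl27, 19 in Mrpl3 and 32 in Mrpl22. Mrpl27 and Mrpl3 share the ETS letters, and Mrpl22 holds the NRF1 letters, which read the same on both strands.
Mrpl27, chr11:94653541-94653790, plus strand: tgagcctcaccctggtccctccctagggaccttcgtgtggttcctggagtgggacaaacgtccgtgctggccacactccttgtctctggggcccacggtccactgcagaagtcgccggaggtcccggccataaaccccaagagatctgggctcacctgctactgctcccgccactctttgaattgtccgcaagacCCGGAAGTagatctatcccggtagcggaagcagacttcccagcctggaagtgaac
Mrpl3, chr9:105053018-105053267, plus strand: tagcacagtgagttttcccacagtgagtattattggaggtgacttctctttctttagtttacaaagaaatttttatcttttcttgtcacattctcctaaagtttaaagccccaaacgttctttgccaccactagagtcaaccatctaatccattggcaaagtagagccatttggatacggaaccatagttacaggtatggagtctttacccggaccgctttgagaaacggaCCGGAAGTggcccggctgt
Mrpl22, chr11:58171414-58171663, plus strand: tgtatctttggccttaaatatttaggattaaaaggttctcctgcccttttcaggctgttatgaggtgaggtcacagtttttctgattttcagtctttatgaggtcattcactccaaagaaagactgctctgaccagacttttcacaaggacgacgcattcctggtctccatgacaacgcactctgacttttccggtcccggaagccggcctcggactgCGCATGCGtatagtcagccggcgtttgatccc
The same ETS letters therefore stood before a gene with every MMS-treated knock-out array above the untreated ones and before a gene with every one below. A match of letters is a description of the window and not a sign of binding.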

How the data were processed

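The authors deposited log2 values for each probe set in each array, made with RMA per the submitters' processing notes. Neither its version nor the chip definition was given, and the log base was taken from the range of the values. RMA corrects background, normalizes arrays and summarises probes, which hides any change common to most transcripts. Of 22690 probe sets, 64 controls were set aside and 22626 were tested. The platform annotation gave 20380 of these 1 symbol, 691 several and 1555 none, and the table had 0 extra sample columns. No detection calls came with the values, and 3 arrays per group limit the precision.

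All 12 arrays were fitted with 1 mean per group in limma 3.58.1 (R 4.3.3; 8 residual degrees of freedom), with Benjamini-Hochberg adjustment at 0.05. The 5 contrasts were MMS in each genotype, genotype at each treatment and their interaction. In simulated data of the wild-type response over 22626 probe sets, 26 of 50 probe sets raised by 1 and 21 of 50 lowered by 1 were recovered. Of those changed by 0.5, 1 of 50 raised and 1 of 50 lowered were recovered, with 7 false among 56 calls. No other probe sets were changed in the simulation, whereas 1458 were called in the real wild-type response. With so few changed probe sets the adjustment is stricter, so these recovered shares do not carry over to the real data. Named genes were the 4 with the smallest p per contrast, 8 fixed for a known role within or beyond the ribosome, genes called in the pathway lists, and examples from the counts. The genes, lists and role classes were chosen with earlier results of these data known. The alternatives were 2 further normalizations, a filter on low values, 2 variance models, array weights, other ways to represent a gene, the compared groups alone, the animal number as a block and arrays left out. The control-signal covariate, leaving out the 3 arrays with high control signal, and the counts of groups that do not overlap with their other scalings were added after seeing the data. Promoter windows came from RefSeq (GRCm38.p6). The NRF1 motif was shortened after promoter counts had been seen, and counts for both forms are given.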

Additional observations from a re-analysis of the deposited data

Results flagged for a closer look

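Mrps16 and Mrps25 were picked out because every MMS-treated array lay above every untreated array in knock-out liver and below every untreated array in wild-type liver. How many of all probe sets had this combination was not counted. The interaction was 0.56 ± 0.15 for Mrps16 and 0.86 ± 0.22 for Mrps25 on the log2 scale, and neither was called by limma (adjusted p = 0.146 and 0.138). With array weights both were called, where 10.4% of all probe sets were, and without both knock-out arrays numbered 3 Mrps25 was called, where 2.27% were.

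A further probe set of Mrpl1 was picked out as a value outside the chosen probe sets. It was lower in every MMS-treated than in every untreated wild-type array, by -0.53 ± 0.13 (limma adjusted p = 0.0401), while the chosen Mrpl1 probe set had overlapping groups.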

How the results depend on the processing

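In all 5 comparisons 0 of the 74 genes were called with the animal number as a replicate block or with either other way to represent a gene, as in the 4 comparisons run with the compared groups alone (the interaction was not). The animal numbers gave correlations of deviations from -0.48 to 0.40, over 0.1 in 7 of 12 pairs. With 3 arrays per group these values cannot decide whether mice of the same number were paired, and the titles do not say. Genes called with array weights numbered 5 in wild-type and 32 in knock-out liver, 11 between treated genotypes and 18 in the interaction, where 21.5%, 25.6%, 6.55% and 10.4% of all probe sets were called. Without both knock-out arrays numbered 3 they numbered 1, 20, 4 and 1, where 9.82%, 14.7%, 5.98% and 2.27% were. The knock-out response had 4 called genes without the lowest 25% of probe sets, 6 with trended robust variance and 1 after quantile normalization, where 5.72%, 4.55% and 2.36% of all probe sets were called. The wild-type response had 3 after median centring, 1 with trended robust variance and 2 with the control-signal covariate, where 7.88%, 7.39% and 10.1% were.

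Median differences were 0.18 (wild-type response), 0.14 (knock-out response), -0.05 (treated genotypes) and -0.05 (interaction) after median centring, where those of all probe sets were 0.14, -0.13, -0.14 and -0.21. They were 0.07 (interaction) after quantile normalization, and 0.06 (knock-out response), -0.01 (treated genotypes) and 0.07 (interaction) with the covariate. Without the 3 arrays of high control signal the wild-type median was -0.13. Relative to each array's cytosolic ribosomal protein median, 20 genes had every treated knock-out array above (8.32% of all probe sets). Without both arrays 3 that count was 49 (31.3%), and 41 genes had every untreated knock-out array below the wild type (27.1%). After median centring 8 had (5.19%).

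Leaving out each array in turn gave 0 to 22 called genes in the knock-out response, 0 to 4 between treated genotypes and 0 to 0 elsewhere. Medians ran from -0.13 to 0.09 (wild type), 0.19 to 0.26 (knock-out), -0.13 to -0.04 (untreated genotypes), 0.03 to 0.21 (treated genotypes) and 0.09 to 0.30 (interaction). Counts ran from 31 to 44 (above after MMS in knock-out; 12.9% to 23.1% of all probe sets) and 20 to 41 (below without MMS; 10.8% to 27.1%). The 22, 4 and 41 came from leaving out MMS-treated knock-out array 3 or untreated knock-out array 3. Of 476 values of named genes, 429 kept their side of the threshold and 47 passed it. None of the 74 genes was called in the main fit, so no call could be lost or reversed. Apart from the arrays left out, the causes were not tested.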
